A study of Rattus norvegicus with 18 samples.

Results

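The 7 genes described here encode proteins that carry glucose into cells and take it through glycolysis to lactate. They were taken by identifier from a list drawn up with earlier results of these data known, as Slc2a1 (ENSRNOG00000007284), Slc2a4 (ENSRNOG00000017226), Hk2 (ENSRNOG00000006116), Gapdh (ENSRNOG00000018630), Pkm (ENSRNOG00000011329), Ldha (ENSRNOG00000013009) and Ldhb (ENSRNOG00000013000). All 7 were found among the 37262 genes listed and passed the filter on low values that left 17397 genes for testing. The pairing of symbols with identifiers came with the list, since the deposited files hold identifiers alone. RNA sequencing was done on rRNA-depleted heart RNA in 18 libraries. The groups were SHR (spontaneously hypertensive rats) given QDG, SHR given NS, and WKY (Wistar-Kyoto) rats, the normotensive strain usually set beside SHR, with 6 libraries each. They are called QDG, SHR and WKY below. QDG and NS are not expanded in the labels, which also leave unsaid whether WKY rats received NS and how old the animals were. An effect of NS therefore cannot be told apart from strain in SHR against WKY. No source used here ties each library to its own animal, and p-values therefore describe library-to-library spread.

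Slc2a1 encodes GLUT1, a glucose transporter that sits at the cell surface without insulin and is found in many cell types, and Slc2a4 encodes GLUT4, the insulin-responsive transporter of heart, skeletal muscle and fat. Hk2 encodes hexokinase 2, which traps glucose in the cell as glucose 6-phosphate. Gapdh catalyses the step of glycolysis that yields NADH, and Pkm encodes the muscle pyruvate kinase, which yields pyruvate and ATP. Ldha and Ldhb encode the subunits of lactate dehydrogenase: enzyme rich in the Ldha subunit is associated with making lactate from pyruvate, and the Ldhb subunit predominates in the adult heart, an organ that takes up and oxidises lactate. The adult heart draws most of its ATP from fatty acids, and GLUT1 is known to be more prominent in the fetal than in the adult heart.

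Slc2a1 and Ldha were the genes of the set with the largest differences between strains, and their promoters are shown for that reason, with that of Ldhb for comparison. The sequences run 5′ to 3′ on the gene's strand over 300 bases, from 250 bases before to 50 bases after the gene's start, and come from RefSeq on build GRCr8. Capitals mark ACGTG or GCGTG on either strand, the letters of the core of the hypoxia response element, which the hypoxia-inducible factors bind. Slc2a1 lies at chr5:138002272-138002571 on the + strand, Ldha at chr1:106507842-106508141 on the + strand and Ldhb at chr4:177177359-177177658 on the - strand.
Slc2a1: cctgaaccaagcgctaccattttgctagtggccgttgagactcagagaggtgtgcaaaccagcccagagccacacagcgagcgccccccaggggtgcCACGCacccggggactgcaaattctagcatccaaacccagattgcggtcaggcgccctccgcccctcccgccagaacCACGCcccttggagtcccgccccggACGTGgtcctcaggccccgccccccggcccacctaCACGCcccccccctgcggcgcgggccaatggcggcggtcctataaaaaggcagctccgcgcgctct
Ldha: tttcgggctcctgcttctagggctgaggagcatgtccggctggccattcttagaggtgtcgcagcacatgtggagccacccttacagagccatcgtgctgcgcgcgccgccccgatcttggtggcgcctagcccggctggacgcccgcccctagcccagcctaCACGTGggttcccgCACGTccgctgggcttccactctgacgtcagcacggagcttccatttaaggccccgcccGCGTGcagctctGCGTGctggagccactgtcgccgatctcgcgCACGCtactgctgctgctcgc
Ldhb: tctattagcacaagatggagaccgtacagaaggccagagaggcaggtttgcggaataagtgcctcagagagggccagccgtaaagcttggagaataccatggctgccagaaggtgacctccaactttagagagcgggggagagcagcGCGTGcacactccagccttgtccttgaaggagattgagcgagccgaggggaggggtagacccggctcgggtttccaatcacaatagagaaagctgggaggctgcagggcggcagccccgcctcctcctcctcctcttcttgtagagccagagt
The Slc2a1 window held 4 matches and the Ldha window 6, of which 2 overlapped as the palindrome CACGTG, whereas the Ldhb window held 1. Of 33469 rat promoters of the same length, 41.6% held at least 1 match, 3.46% held at least 4 and 0.630% held at least 6. Promoters were found for 6 of the 7 genes, the exception being Slc2a4. Gapdh had 3 matches, and none were found in the Hk2 and Pkm windows. The Slc2a1, Ldha and Ldhb windows are also rich in G and C, at 68.3%, 66.7% and 58.0%, against a median of 51.7% over all promoters. Both ACGTG and GCGTG contain CG, and the shares of promoters given above were not matched for base content. A match describes letters in a window, and no binding was measured.

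The files name no unit, and the values are read as FPKM, a unit scaled to gene length and to the fragments of each library, so levels are set side by side between genes on that reading. Libraries summed to 598626 to 676288 FPKM. Absolute depth is unknown, and an estimate of relative depth from low-value steps lay between 0.879 and 1.09 of WKY replicate 1. The most abundant gene of each library took 12.8% to 14.0% of the sum in QDG, 12.8% to 14.9% in SHR and 16.0% to 21.1% in WKY, which bears on any value scaled to a library total. WKY replicate 5 had the lowest relative depth and the highest sum. Since identifiers could not be paired with other symbols, markers of heart muscle or of other cell types and further glycolysis genes were not checked here. In bulk tissue, fewer cells of a type and less RNA per cell cannot be told apart.

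**Figure D1:**
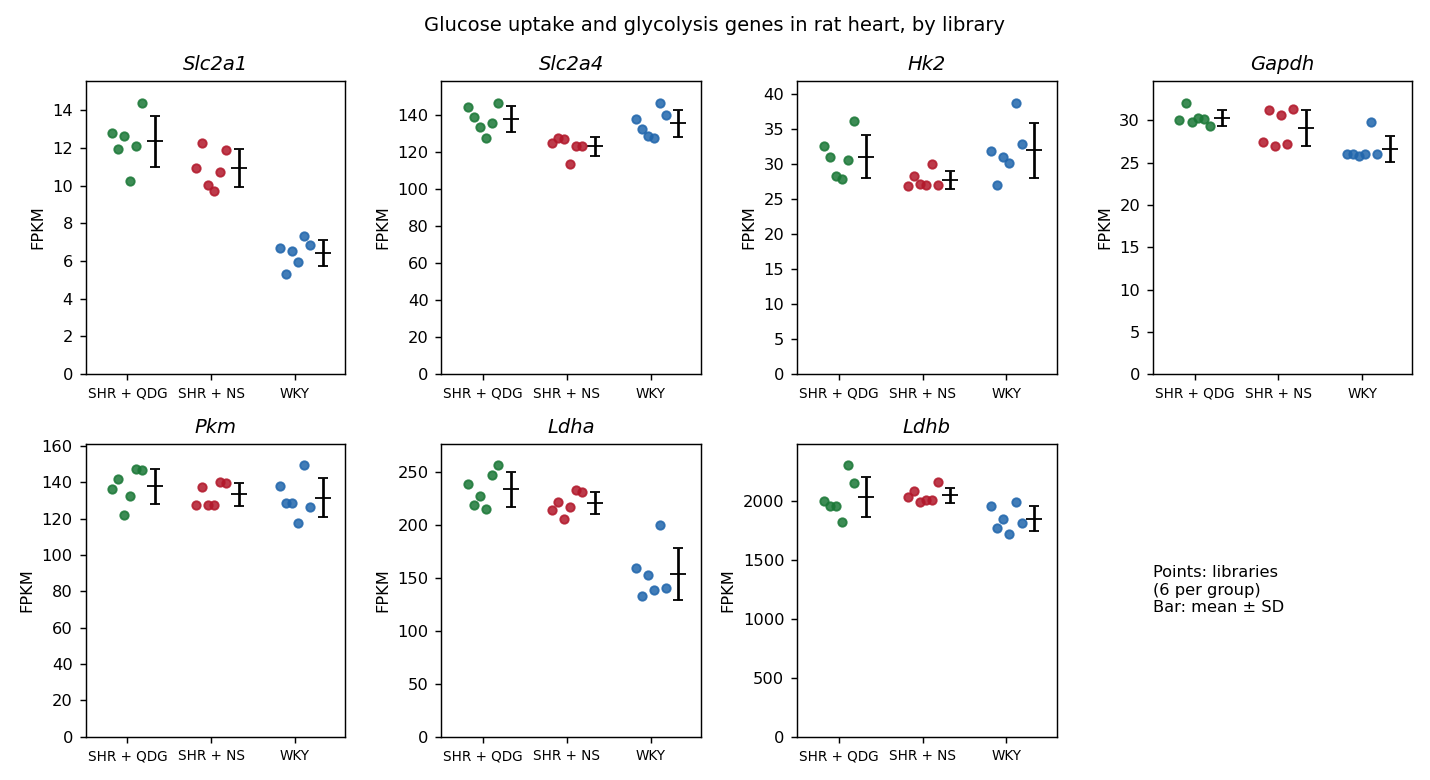
FPKM of the 7 genes in each library (points), with the mean and SD of 6 libraries beside them, for SHR given QDG, SHR given NS and WKY. Slc2a1 and Ldha show both SHR groups above all WKY libraries, and WKY replicate 5 is the highest WKY point in every panel.

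The strain comparison asked which of these genes differed between the hearts of hypertensive and normotensive rats. Slc2a1 and Ldha rose in SHR and Slc2a4 fell slightly, while Hk2, Gapdh, Pkm and Ldhb did not pass the test. The 3 genes called among 7, at an adjusted p under 0.05, stand beside 24.8% of all tested genes. The 2 higher genes stand beside 12.2% and the 1 lower gene beside 12.6%. The median log2 fold change of the 7 was 0.12, against -0.01 over all tested genes. Groups did not overlap for the same 3 genes, a pattern seen in 12.5% of tested genes.

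Slc2a1 lay between 9.71 and 12.3 FPKM in SHR libraries (median 10.8) and between 5.32 and 7.32 FPKM in WKY libraries (median 6.59). Every SHR library was above every WKY library, by at least 2.39 FPKM. The mean was 10.9 ± 1.00 FPKM in SHR and 6.43 ± 0.707 FPKM in WKY (SD, n = 6 each), a 1.70-fold higher mean. On the log2(FPKM + 1) scale its fold change was 0.68 (SE 0.08, limma adjusted p = 1.8e-06). The added 1 shrinks changes of low values, and the fold change was 0.77 with a pseudocount of 0.01. The call held with each library left out in turn, with fold changes from 0.64 to 0.72.

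Slc2a4 was far more abundant and moved the other way. It lay between 113 and 127.4 FPKM in SHR libraries (median 124) and between 127.5 and 146 FPKM in WKY libraries (median 135). The groups did not overlap, but only by a gap of 0.0249 FPKM between the highest SHR and the lowest WKY library. The mean was 123 ± 5.11 FPKM in SHR and 135 ± 7.27 FPKM in WKY (SD, n = 6 each), a change of the mean of -9.08%. The log2 fold change was -0.14 (SE 0.05, limma adjusted p = 0.0405), close to the threshold. Of 28 alternatives, 11 ended the call, and adjusted p ranged over them from 0.0112 to 0.0981. The call was lost after median centring (limma adjusted p = 0.0868), with sample weights (0.0539), without a filter (0.0538) and with the 12 compared libraries alone (0.0598). It was also lost without WKY replicate 1, 5 or 6 and without SHR replicate 1, 4, 5 or 6; the largest adjusted p came without SHR replicate 4, the lowest library.

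Hk2, whose product acts next, lay between 26.8 and 30.0 FPKM in SHR libraries (median 27.0) and between 26.9 and 38.7 FPKM in WKY libraries (median 31.4). The groups overlapped, with the WKY libraries spread more widely. The log2 fold change was -0.19 (SE 0.07, limma adjusted p = 0.0605), and it passed the threshold in 6 of 28 alternatives, among them the fits without WKY replicate 2 (adjusted p = 0.0183), without SHR replicate 5 (0.0479) and without QDG replicate 6 (0.0448). Its adjusted p ranged from 0.0183 to 0.137 over the alternatives.

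Gapdh lay between 27.0 and 31.3 FPKM in SHR libraries (median 29.0) and between 25.8 and 29.8 FPKM in WKY libraries (median 26.1). WKY replicate 5 alone lay within the SHR range, the other WKY libraries being at 26.1 or below. The log2 fold change was 0.12 (SE 0.05, limma adjusted p = 0.0779), and 0.15 without WKY replicate 5 (limma adjusted p = 0.0202). Gapdh has near-identical processed copies in rodent genomes, and the counting of reads that match several copies is not stated in the sources, so its level is uncertain. Pkm lay between 128 and 140 FPKM in SHR libraries (median 133) and between 118 and 149 FPKM in WKY libraries (median 129). All SHR libraries lay within the WKY range. Its log2 fold change of 0.02 had a 95% interval from -0.10 to 0.14 (limma adjusted p = 0.816). The gene-level value does not separate the M1 and M2 splice forms of Pkm.

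Ldha lay between 206 and 233 FPKM in SHR libraries (median 220) and between 133 and 200.2 FPKM in WKY libraries (median 147). The groups did not overlap, and the nearest WKY library was replicate 5, the other WKY libraries reaching at most 159 FPKM. The mean was 221 ± 10.3 FPKM in SHR and 154 ± 24.5 FPKM in WKY (SD, n = 6 each), a 1.43-fold higher mean. The log2 fold change was 0.53 (SE 0.08, limma adjusted p = 5.1e-05), and 0.61 without WKY replicate 5.

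Ldhb was the most abundant gene of the set, at 1989 to 2160 FPKM in SHR libraries (median 2021) and 1719 to 1990 FPKM in WKY libraries (median 1830). The lowest SHR library lay just below WKY replicate 5, the highest WKY library, and the groups were otherwise separate. The log2 fold change of 0.15 (SE 0.06) did not pass the threshold (limma adjusted p = 0.0663). It passed in 5 of 28 alternatives, including the fits without WKY replicate 5 (limma adjusted p = 0.0366) and without QDG replicate 5 (0.0457).

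**Figure D2:**
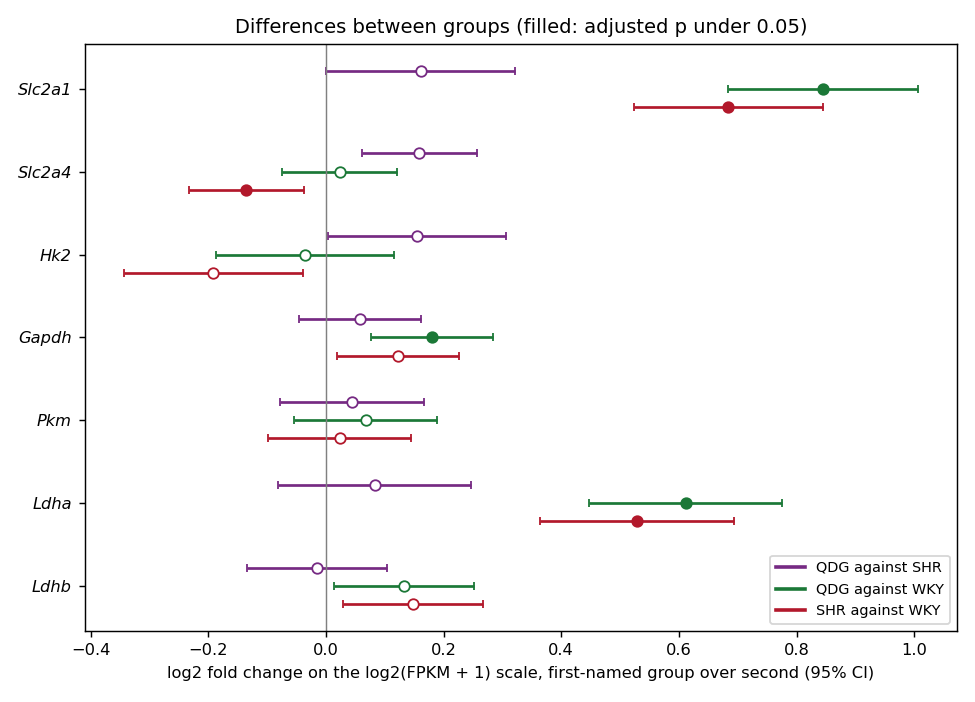
Log2 fold changes of the 7 genes on the log2(FPKM + 1) scale with 95% confidence intervals from limma, the group named first over the one named after it. Filled points have an adjusted p under 0.05: Slc2a1 and Ldha in both comparisons with WKY, Slc2a4 in SHR against WKY and Gapdh in QDG against WKY, with none in QDG against SHR.

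Ratios within a library do not depend on the scaling to its total. The Slc2a1 to Slc2a4 ratio lay between 0.0792 and 0.0964 in SHR libraries (median 0.0874) and between 0.0402 and 0.0507 in WKY libraries (median 0.0486). GLUT4 mRNA exceeded GLUT1 mRNA in every library of both groups, but Slc2a1 made up 8.15% ± 0.556 of the FPKM of the pair in SHR and 4.53% ± 0.352 in WKY (SD, n = 6 each). The mean log2 ratio was 0.90 higher in SHR (SE 0.07), or 1.87-fold, and the groups did not overlap. The two-sided exact permutation p was 0.00216, the smallest that 6 against 6 libraries can give. After Benjamini-Hochberg adjustment over 6 ratio comparisons it was 0.00325. Every SHR library was above every WKY library for Slc2a1 and below every one for Slc2a4, there by only 0.0249 FPKM. The ratio therefore had to separate, and its p adds no support beyond the values of the 2 genes.

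The Ldha to Ldhb ratio lay between 0.104 and 0.116 in SHR libraries (median 0.107) and between 0.0749 and 0.101 in WKY libraries (median 0.0810). Ldha made up 9.74% ± 0.356 of the FPKM of the pair in SHR and 7.66% ± 0.767 in WKY (SD, n = 6 each). The mean log2 ratio was 0.38 higher in SHR (SE 0.07), or 1.31-fold, without overlap (exact permutation p = 0.00216, adjusted p = 0.00325). The difference was 0.44 without WKY replicate 5, whose ratio of 0.101 stood apart from 0.0749 to 0.0826 in the other WKY libraries.

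**Figure D3:**
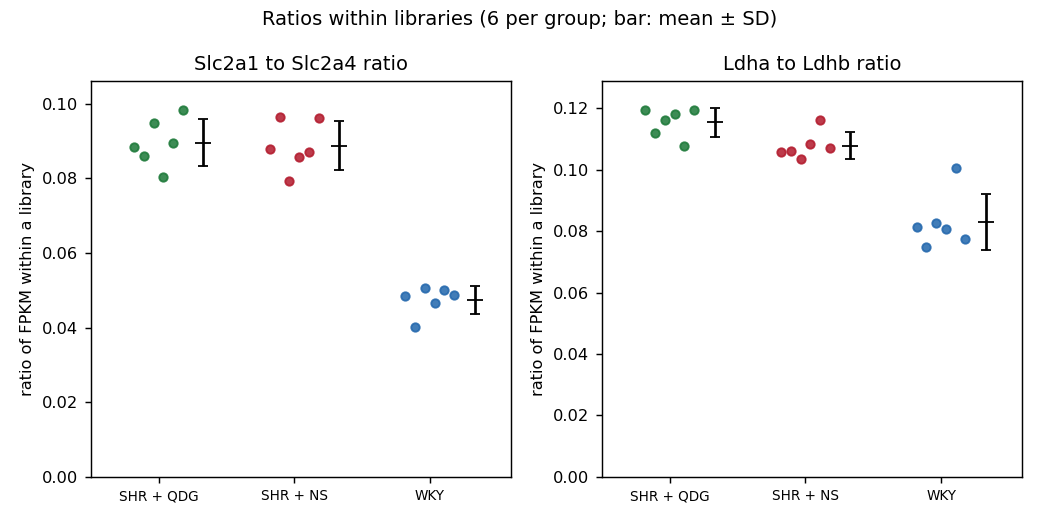
Ratio of FPKM within each library (points) with the mean and SD of 6 libraries, for Slc2a1 over Slc2a4 and for Ldha over Ldhb. Both ratios are higher in every QDG and SHR library than in every WKY library. Between QDG and SHR the Slc2a1 to Slc2a4 ratio did not pass the test. The Ldha to Ldhb ratio passed it (medians of 0.117 in QDG and 0.107 in SHR), with overlapping groups. Its call was lost when same-numbered libraries were paired.

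The treatment comparison asked what QDG changed in the SHR heart. None of the 7 genes passed the test in QDG against SHR (limma), where 0.293% of all tested genes did. Before adjustment, 2 of the 7 (Slc2a4 and Hk2) had a p under 0.05, beside 10.4% of all tested genes. The median log2 fold change of the 7 was 0.08, against 0.02 over all tested genes. These values share the SHR libraries with the strain comparison.

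Slc2a4 lay between 127.6 and 146.5 FPKM in QDG libraries (median 137) and between 113 and 127.4 FPKM in SHR libraries (median 124). All QDG libraries were above all SHR libraries, by a gap of 0.173 FPKM, a pattern seen in 1.15% of tested genes. The mean was 138 ± 7.06 FPKM in QDG and 123 ± 5.11 FPKM in SHR (SD, n = 6 each), an 11.8% higher mean. The log2 fold change of 0.16 (SE 0.05) had a limma adjusted p of 0.200, and its adjusted p lay between 0.0837 and 0.362 in 28 alternatives, so the difference did not pass the correction over all genes.

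Hk2 lay between 27.8 and 36.1 FPKM in QDG libraries (median 30.7) and between 26.8 and 30.0 FPKM in SHR libraries (median 27.0). In QDG, 4 of 6 libraries were above the highest SHR library (log2 fold change 0.16, SE 0.07, limma adjusted p = 0.464). Slc2a1 lay between 10.3 and 14.4 FPKM in QDG libraries (median 12.4) and between 9.71 and 12.3 FPKM in SHR libraries (median 10.8). In QDG, 3 of 6 libraries were above the highest SHR library, and the log2 fold change was 0.16 (SE 0.08, limma adjusted p = 0.479). Ldha lay between 215 and 257 FPKM in QDG libraries (median 233) and between 206 and 233 FPKM in SHR libraries (median 220), and the log2 fold change was 0.08 (SE 0.08, limma adjusted p = 0.772). Gapdh, Pkm and Ldhb had 95% intervals of the log2 fold change from -0.05 to 0.16, from -0.08 to 0.17 and from -0.13 to 0.10.

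The Slc2a1 to Slc2a4 ratio lay between 0.0805 and 0.0983 in QDG libraries (median 0.0890), close to the range in SHR libraries given above. The mean log2 ratio differed by 0.01 (SE 0.06, exact permutation p = 0.764). The Ldha to Ldhb ratio lay between 0.108 and 0.119 in QDG libraries (median 0.117) and between 0.104 and 0.116 in SHR libraries (median 0.107). The mean log2 ratio was 0.10 higher in QDG (SE 0.03), or 1.07-fold, with an exact permutation p of 0.0195 and an adjusted p of 0.0234. The groups overlapped through QDG replicate 5 at 0.108 and SHR replicate 5 at 0.116. The call held with each of the 12 libraries left out in turn (exact permutation, adjusted p up to 0.0494) and was lost when same-numbered libraries were paired (adjusted p = 0.113).

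The third comparison set QDG against WKY, and its WKY libraries are those of the strain comparison. These groups differ in both strain and treatment, whose effects cannot be told apart here. Slc2a1, Gapdh and Ldha rose, and none fell: 3 of 7 called beside 20.9% of all tested genes, the 3 higher genes beside 11.7%. Slc2a1 averaged 12.4 ± 1.34 FPKM in QDG and 6.43 ± 0.707 FPKM in WKY (SD, n = 6 each), a 1.92-fold higher mean, and the log2 fold change was 0.85 (SE 0.08, limma adjusted p = 1.2e-07). Ldha averaged 234 ± 16.5 FPKM in QDG and 154 ± 24.5 FPKM in WKY (SD, n = 6 each), a 1.52-fold higher mean, and the log2 fold change was 0.61 (SE 0.08, limma adjusted p = 1.0e-05). For these genes the groups did not overlap, as for 10.4% of tested genes.

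Gapdh lay between 29.4 and 32.1 FPKM in QDG libraries (median 30.1) and between 25.8 and 29.8 FPKM in WKY libraries (median 26.1), overlapping through WKY replicate 5 alone. Its log2 fold change was 0.18 (SE 0.05, limma adjusted p = 0.0123), and the call held with each library left out. Slc2a4 averaged 138 ± 7.06 FPKM in QDG and 135 ± 7.27 FPKM in WKY (SD, n = 6 each), and the 95% interval of its log2 fold change ran from -0.07 to 0.12. Hk2 averaged 31.0 ± 3.08 FPKM in QDG and 31.9 ± 3.89 FPKM in WKY (SD, n = 6 each), with an interval from -0.19 to 0.12. Pkm averaged 138 ± 9.63 FPKM in QDG and 132 ± 10.9 FPKM in WKY (SD, n = 6 each; limma adjusted p = 0.475). Ldhb lay between 1820 and 2302 FPKM in QDG libraries (median 1982) and did not pass the threshold (limma adjusted p = 0.112). It passed in 2 of 28 alternatives, with sample weights (limma adjusted p = 0.0212) and without QDG replicate 4, its lowest library (0.0472). The Slc2a1 to Slc2a4 and Ldha to Ldhb ratios were 1.89-fold and 1.40-fold higher in QDG than in WKY, each without overlap (exact permutation p = 0.00216, adjusted p = 0.00325).

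The order of FPKM levels was the same at its ends in all 18 libraries. Ldhb was highest, at 8.67 ± 0.364 times Ldha in QDG, 9.28 ± 0.361 times in SHR and 12.2 ± 1.18 times in WKY (SD, n = 6 each). Ldha exceeded Pkm in every library, by 1.70 ± 0.113 times in QDG, 1.65 ± 0.0374 times in SHR and 1.17 ± 0.102 times in WKY (SD, n = 6 each). Pkm and Slc2a4 could not be ordered in QDG, where Pkm was higher in 4 of 6 libraries, or in WKY, where it was higher in 3 of 6; in SHR it was higher in 6 of 6. Hk2 and Gapdh values were also near each other, with Hk2 higher in 3 of 6 QDG, 2 of 6 SHR and 6 of 6 WKY libraries. The level of Gapdh is uncertain, since the counting of reads that match its copies is not stated, and so is its place in this order. Slc2a1 was lowest in every library, yet above 74.1% of tested genes in QDG, 71.3% in SHR and 56.5% in WKY by its group mean. Ldhb ranked 28 from the top among tested genes in QDG, 27 in SHR and 30 in WKY. Together the 7 genes made up 0.377% to 0.453% of the summed FPKM of QDG libraries, 0.398% to 0.438% in SHR and 0.345% to 0.388% in WKY. Most of this was Ldhb, at 1957 of 2457 FPKM in WKY replicate 1, so the share says little of the other genes. It also depends on the library sum, of which the most abundant gene took 16.0% to 21.1% in WKY and 12.8% to 14.9% in SHR.

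**Figure D4:**
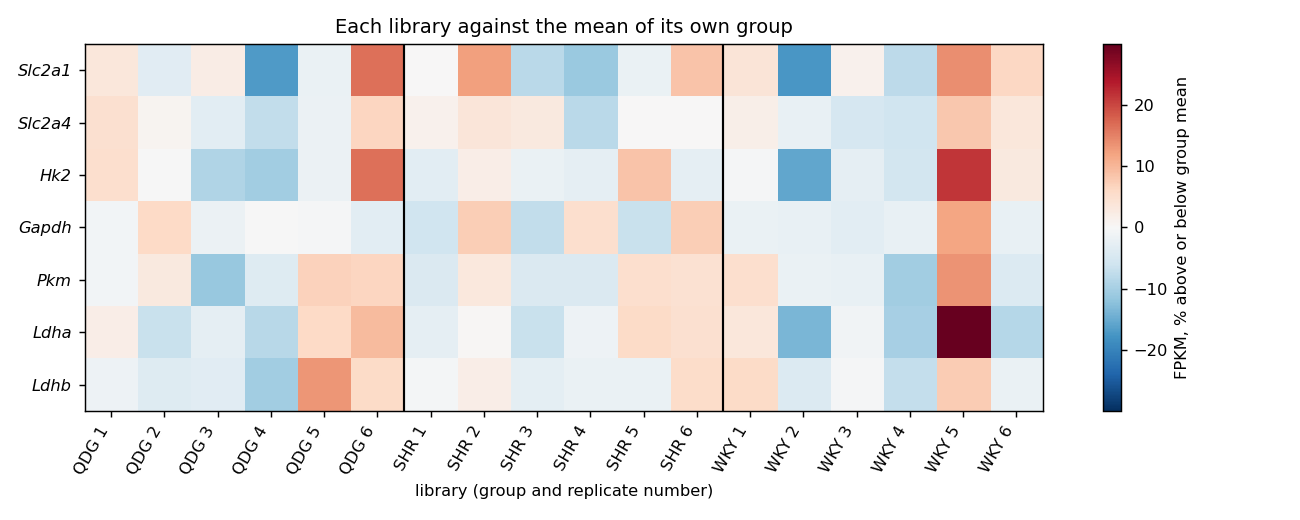
FPKM of each gene in each library as a percentage above (red) or below (blue) the mean of its own group, with groups separated by black lines. WKY replicate 5 is above its group mean for all 7 genes, by 7.53% for Ldhb to 29.9% for Ldha, and QDG replicate 4 is below it for all 7.

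Within groups the 7 genes tended to vary together from library to library. WKY replicate 5 held the highest WKY value of all 7 genes, and over all tested genes it held the highest value of its group for 25.0%. Its median deviation from the group mean was 0.17 on the log2 scale for the 7 genes and 0.0033 over all tested genes. It also had the lowest relative depth, and the part of depth in this was not tested. QDG replicate 4 held the lowest QDG value of 5 of the 7 genes and was below its group mean for all 7, with a median deviation of -0.12, against 0.07 over all tested genes; its relative depth of 0.900 was the lowest of QDG. After group means were taken out, the 21 pairs of members had Pearson correlations of 0.13 to 0.81 over 18 libraries (median 0.60), highest for Hk2 and Ldha and lowest for Slc2a4 and Gapdh. These libraries share their scaling and the same group means, so the correlations are descriptive. No matching figure for pairs of other genes is given here, so shared variation is not shown to be particular to these 7. The coefficient of variation was set against the median of the 8880 genes with a mean of at least 5 FPKM, not matched for level. It was below that median for 5 of the 7 genes in QDG, 6 in SHR and 4 in WKY. The coefficient was highest for Ldha in WKY, at 15.9%, against 4.67% in SHR and a median of 10.3% over the 8880 genes in WKY. That value includes WKY replicate 5, where Ldha was at 200 FPKM, against 133 to 159 FPKM in the other WKY libraries.

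Among those genes, the one that varied most like Slc2a1 within groups was ENSRNOG00000010558 (r = 0.84 over 18 libraries), which averaged 67.9 FPKM in QDG, 67.3 in SHR and 52.4 in WKY. For Slc2a4 it was NONRATG008922.2 (r = 0.96), at 5.62 FPKM in QDG, 5.35 in SHR and 6.69 in WKY. For Hk2 it was ENSRNOG00000045647 (r = 0.90), and for Gapdh NONRATG023544.2 (r = 0.83). The highest correlations for Pkm, Ldha and Ldhb were 0.95, 0.95 and 0.90. These are the highest of 8879 correlations each, and the files name none of these genes. Whether any of them shares reads with its member, NONRATG008922.2 with Slc2a4 included, was not tested.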

How the data were processed

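Heart RNA in 18 rat libraries was extracted with Trizol, depleted of rRNA and sequenced on an Illumina platform, per the labels' protocols. The authors deposited values per gene that are read here as FPKM, since they are not whole and their sums differ between libraries; the files name no unit. Limma is named without a version, per the submitters' processing notes. The aligner, counter, genome build, annotation and strand use were not given in the sources used here. Reads of overlapping or antisense genes may therefore be mixed. The 47357 reference entries hold 0 Ensembl identifiers, so lists of other glycolysis genes and of cell type markers were not analysed here.

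A gene was kept where 6 or more of the 18 libraries reached 1 FPKM. Its log2(FPKM + 1) values entered limma (version 3.58.1, under R 4.3.3), with an intensity trend, robust moderation, 1 mean per group and 3 contrasts. P-values were two-sided and adjusted by Benjamini-Hochberg over the genes kept, with a threshold of 0.05. The fit was also run on simulated independent normal values, which hold no variation shared between the genes of a library. Ratios of FPKM were compared by exact permutation tests in Python 3.11.15. Groups and replicate numbers came from the sample titles. The rule for named genes took the 7 members whatever their values and the genes most correlated with them, limited to 4 identifiers. Alternatives covered scaling, moderation, weights, the filter, pseudocounts, the libraries in the fit, the replicate block and each library left out. The members and lists were chosen with earlier results of these data known.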

Additional observations from a re-analysis of the deposited data

Results flagged for a closer look

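Of 27 groups of 6 values examined (7 genes and 2 ratios in 3 groups), 4 held a library far from its nearest neighbour. Independent normal values give about 1 in 20, but these groups share libraries and genes. The share over all tested genes was not computed, so an excess is not shown. Slc2a4 was at 113 FPKM in SHR replicate 4 and at 123 to 127 FPKM in the other SHR libraries. Gapdh reached 32.1 FPKM in QDG replicate 2, against 29.4 to 30.3 FPKM in the other QDG libraries. Gapdh was at 29.8 FPKM in WKY replicate 5 and at 25.8 to 26.1 FPKM in the other WKY libraries. The Ldha to Ldhb ratio was 0.101 in WKY replicate 5 and 0.0749 to 0.0826 in the other WKY libraries. WKY replicate 5 also had the lowest relative depth, 0.879 of WKY replicate 1, whose part in these values was not tested.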

How the results depend on the processing

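Of 588 alternative fold changes of the 7 genes, 556 kept their direction and their side of the threshold, 11 lost a call (all Slc2a4 in SHR against WKY), 15 gained one and 6 changed sign, and the cause was not tested. Members called in SHR against WKY numbered 5 with quantile normalization (3 higher, 2 lower), 5 with sample weights (4 higher, 1 lower) and 5 with a replicate block (3 higher, 2 lower), and 2 to 4 with 1 library left out. Calls over all 17397 genes tested were also more in these fits, at 4792, 4924 and 4760 in that order, against 4306 as reported. The number of the 7 genes called stayed at 0 for QDG against SHR in 28 alternatives and at 3 or 4 for QDG against WKY. Signs changed only in fold changes near 0. For Slc2a4 in QDG against WKY it was -0.022 with quantile normalization. For Hk2 in QDG against WKY it was 0.015 with sample weights and -0.082 to 0.019 with 1 library left out. For Pkm in SHR against WKY it was -0.0077 to 0.060, and for Ldhb in QDG against SHR -0.052 to 0.016, with 1 library left out (Ldhb was 0.00072 without SHR replicate 6). The Slc2a1 to Slc2a4 ratio in QDG against SHR ranged from -0.017 to 0.045 on the log2 scale with 1 library left out. With a replicate block, an exact sign-flip test of same-numbered libraries that cannot go below an unadjusted p of 0.0313, the Ldha to Ldhb ratio in QDG against SHR was again 0.098 higher but lost its call (adjusted p = 0.113). After group means were taken out, same-numbered libraries correlated at -0.057 to 0.19 over the tested genes. In each comparison 1 or 2 of 6 pairs were above 0.1. Of 18 libraries, 1 correlated best with its own number in both other groups. Median centring shifted single libraries by up to 0.098. Absolute depth is unknown, which limits what can be said of the precision of Slc2a1, the least abundant of the genes.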

Other observations

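Gapdh is often used as a loading reference, and here levels relative to it within a library are given as values without a test. The Slc2a4 to Gapdh ratio was 4.55 ± 0.292 in QDG, 4.25 ± 0.398 in SHR and 5.09 ± 0.197 in WKY (SD, n = 6 each), and every SHR library, at 3.70 to 4.69, lay below every WKY library, at 4.89 to 5.37. The Slc2a1 to Gapdh ratio was 0.409 ± 0.0517 in QDG, 0.376 ± 0.0305 in SHR and 0.241 ± 0.0217 in WKY (SD, n = 6 each). The Ldhb to Gapdh ratio was 67.2 ± 6.49 in QDG, 70.5 ± 3.88 in SHR and 69.5 ± 3.35 in WKY (SD, n = 6 each), with ranges that overlap in all 3 groups. These ratios were chosen after the values of Gapdh were seen. Gapdh itself averaged 29.1 FPKM in SHR and 26.6 FPKM in WKY, a difference that did not pass the test. A higher Gapdh value lowers each ratio to it, and the level of Gapdh is uncertain. The gap of Slc2a4 itself between SHR and WKY was 0.0249 FPKM.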
